A study of Mus musculus with 18 samples.

Results

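The splicing and mRNA export factors described here are 65 genes of 6 families, measured by 185 probe sets of the 45037 tested on a mouse expression array. Members were all probe sets annotated to a single gene symbol that begins with Hnrnp, Srsf, Sf3a or Sf3b, Prpf, Snrp or Thoc (followed by a digit for all but Hnrnp and Snrp), leaving out Snrpn. The hnRNP family held 58 probe sets of 19 genes, the SR proteins 33 of 10 genes, the SF3 complex 30 of 9 genes, the PRPF proteins 32 of 12 genes, the Sm and snRNP proteins 17 of 8 genes and the THO complex 15 of 7 genes. In 47 genes the array carried more than 1 probe set, and 18 genes had 1.

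Each array was hybridized with RNA of transgenic mice, in 2 groups of 9 arrays. The first group (IP) was RNA that had been crosslinked in the brain with 1% formaldehyde to a flag-tagged poly(A)-binding protein and recovered with anti-flag beads, and the labels call it polyA RNA. The second (WB) was total RNA of whole brain, and 1% formaldehyde is listed for these samples too. Both groups are labelled transgenic and are described as mice of C57BL/6J X DBA/2J origin, with ages of 11 and 14 weeks that the labels do not assign to arrays. The transgene is a rat cDNA of the binding protein with a flag tag, placed in a bacterial artificial chromosome at the coding sequence of the orexin gene (Hcrt), followed by a green fluorescent protein, so that orexin neurons of the lateral hypothalamus should be the cells that make the tagged protein. Setting IP against WB shows which RNAs the pull-down was rich or poor in relative to the brain. Whether every sample had an animal of its own is not labelled, so p-values measure only how far these samples spread, which may be technical. IP and WB RNA also differ in how they were recovered, and this cannot be told apart from the cells they came from, nor can fewer cells of a type be told apart from less RNA per cell.

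Introns are removed in the nucleus by the spliceosome, which is built from small nuclear RNAs and their proteins. A ring of Sm proteins encloses most of these RNAs, the SF3A and SF3B proteins help the U2 particle hold the branch point, and PRPF proteins assemble the U4, U5 and U6 particles and drive the catalytic steps. SR proteins bind exons and usually favour their inclusion, hnRNP proteins coat the nascent transcript and often oppose it, and the THO complex couples transcription and splicing to export of the finished messenger RNA. Many genes of these families are themselves alternatively spliced or polyadenylated, and several SR protein genes carry exons whose inclusion leads to decay of the transcript.

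Values are the deposited array intensities, on a linear scale on which the trimmed mean of each array was 500. Differences are IP minus WB on log2(intensity + 16), tested with limma over all probe sets with Benjamini-Hochberg adjustment, and a probe set is called higher or lower at an adjusted p below 0.05. The 9 IP arrays were less alike than the WB arrays, with a mean Spearman correlation to their own group of 0.767 to 0.828 in IP and 0.937 to 0.946 in WB. The median SD of the members was 0.51 in IP and 0.22 in WB. IP arrays 2, 5, 6 and 8 had the highest untrimmed mean intensities (924 to 994, against 643 to 687 over the WB arrays). Hcrt, whose locus drives the transgene, differed by 0.21 (SE 0.28, adjusted p = 0.568) and did not pass the test. Marker genes were called and summed on the brightest probe set of each gene, a choice that included the IP values. Over all genes of the array the brightest probe set was higher in 21.7% and lower in 21.7%. Of the marker genes looked at, 3 of 5 neuronal genes were higher and 2 lower. Of 5 astrocyte genes 3 were higher and 1 lower, of 4 oligodendrocyte genes 2 and 1, and of 5 microglial genes 1 and 2. Of 5 endothelial genes 4 were lower and 0 higher, and of 4 red blood cell genes 3 were lower and 0 higher. Among the genes called higher, Rbfox3, Map2 and Aqp4 were each higher on 1 probe set and lower on 2. Gja1 was higher on 4 and lower on 1, Gfap on 2 and 1, and Mbp on 4 and 4. Snap25, Sox10 and Csf1r had no lower call. The summed intensity was 70050 to 133000 in IP and 52310 to 70480 in WB for the neuronal genes, 31370 to 62330 in IP and 16450 to 22550 in WB for the astrocyte genes, and 27840 to 82470 in IP and 17130 to 26360 in WB for the oligodendrocyte genes. It was 3729 to 8229 in IP and 1954 to 3620 in WB for the microglial genes, 733 to 1359 in IP and 1683 to 2067 in WB for the endothelial genes, and 298 to 1282 in IP and 5089 to 16260 in WB for the red blood cell genes. Markers of 1 cell type differed among themselves: the neuronal genes Rbfox3 and Tubb3 had medians of 12307 and 408 in IP, against 3002 and 3674 in WB, and the microglial genes Csf1r and Aif1 had 5147 and 14.6 in IP, against 1606 and 409 in WB. The part of these cell types in the results below was not tested.

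Splicing and export factors moved in both directions. Of the 185 probe sets, 67 (36.2%) were higher in IP, where 14.2% of all tested probe sets were, and 59 (31.9%) were lower, where 30.8% of all were. The other 59 did not pass the test. In 50 of the probe sets (27%) all 9 IP values lay above all 9 WB values, against 5.22% of all probe sets, and in 19 (10.3%) all IP values lay below all WB values, against 10.3% of all. Calls of at least 2-fold numbered 48 higher (25.9%, against 7.72% of all probe sets) and 33 lower (17.8%, against 21.9%). The members had a median difference of 0.00, with quartiles of -0.82 and 1.10, while the median over all probe sets was -0.23.

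The balance of the calls depended on how the arrays were scaled. As deposited, 53.2% of the member calls were higher ones. This became 54.5% with quantile normalization (66 higher, 55 lower), 72.5% with median centring (87 higher, 33 lower) and 22.1% when each array was scaled on its hybridization controls (32 higher, 113 lower; below, control scaling). Over all probe sets 31.6% of the calls were higher as deposited and 4.04% under control scaling. Median centring made this share 60.6% and quantile normalization 52.3%, so that in this share the members stood close to the array under quantile normalization. Members were still called more often there, 66 of 185 higher against 10869 of 45037, and 55 lower against 9908. Of the 45037 probe sets, 6403 rose and 13854 fell as deposited. Once arrays were centred on their medians, 12802 rose and 8322 fell. Control scaling left 1297 rises and 30824 falls. Under median centring and control scaling the counts of each family, given below, shifted in the same directions as these array counts. The median difference of the members became 0.02 under quantile normalization, where that of all probe sets was 0.11, 0.43 under median centring (0.20 over all) and -0.94 under control scaling (-1.17 over all). The hybridization controls, labelled control transcripts added to the hybridization mix, themselves averaged 13.69 to 15.31 in IP and 13.05 to 13.54 in WB (log2). Of the 67 probe sets called higher, 32 were called higher under that scaling as well, 67 with median centring and 57 with quantile normalization.

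**Figure D1:**
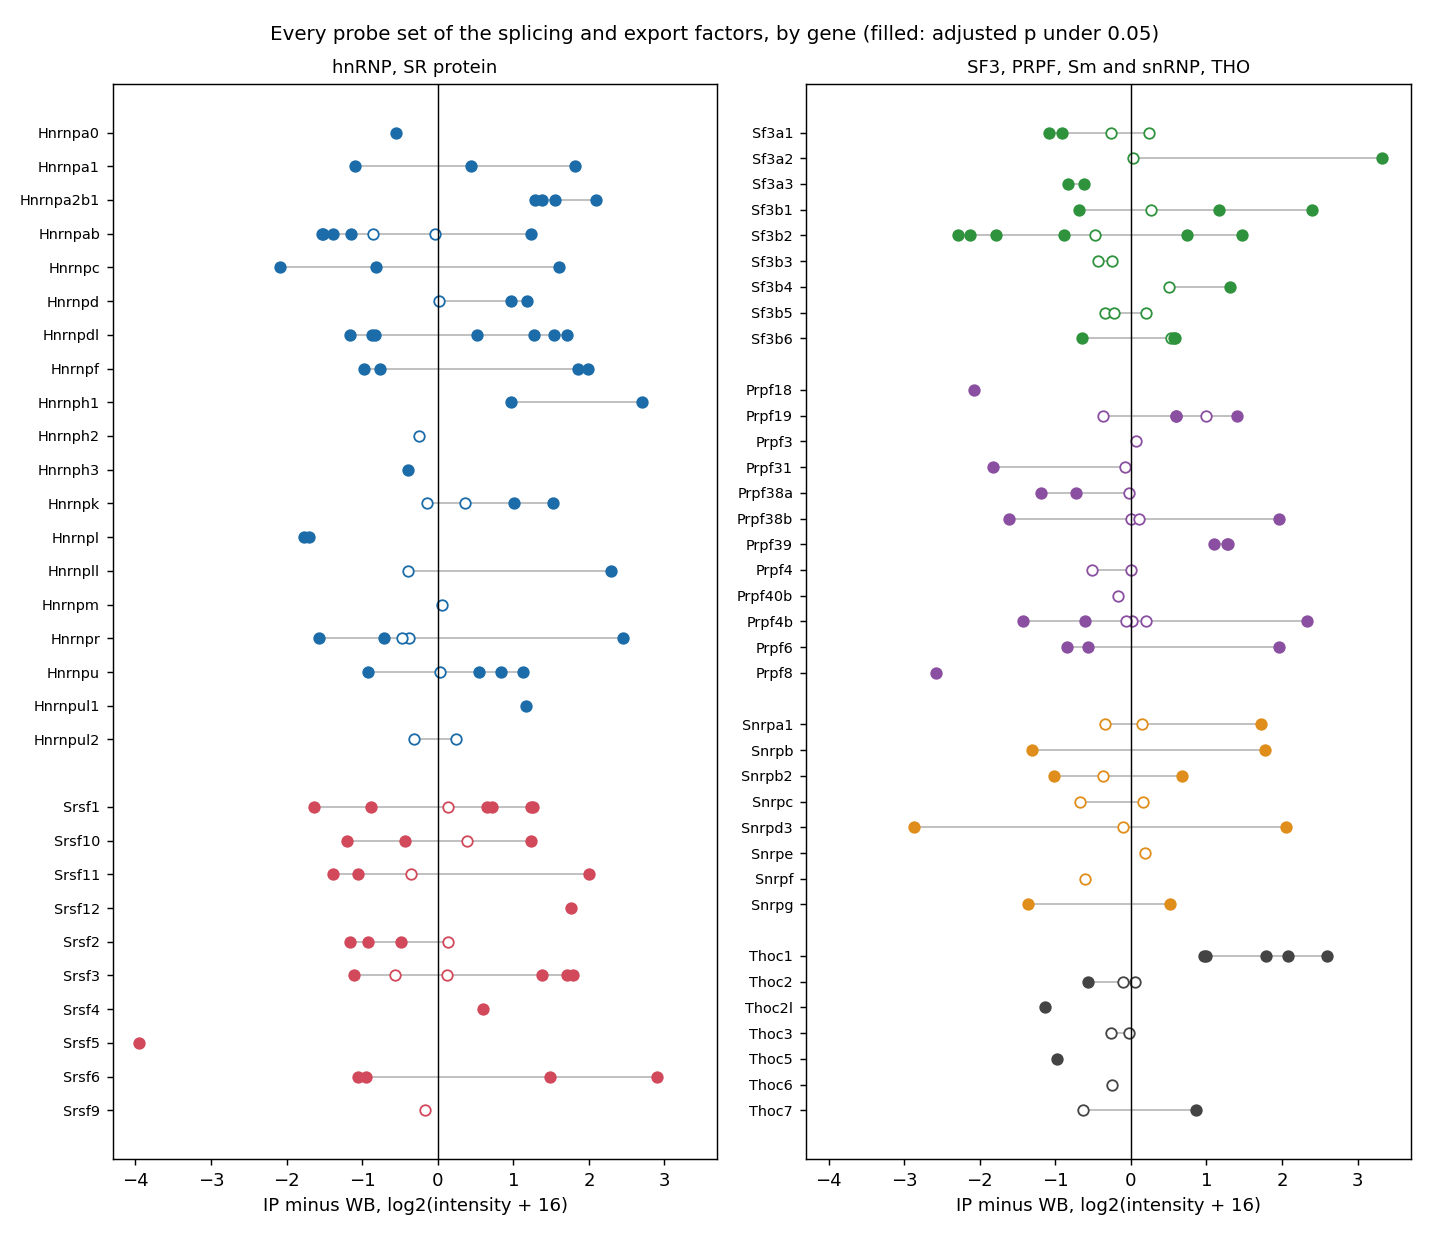
Difference between IP and WB (log2 of intensity + 16, horizontal axis) for every probe set of each of the 65 genes, with a grey line joining the probe sets of a gene. Filled points passed adjusted p 0.05 and open ones did not. Many genes have filled points on both sides of 0, and those of Thoc1 all lie to the right.

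The U2 particle proteins held the largest rise of all members. The SF3 family had 8 probe sets higher (26.7%, against 14.2% of all), 10 lower (33.3%, against 30.8%) and 12 not called of 30 (median -0.23). With median centring 13 were higher and 4 lower, and with control scaling 3 and 19. Sf3a2, a subunit of the SF3A complex that joins the U2 particle, had intensities of 4335 to 7138 (median 5227) in IP and 353 to 761 (median 522) in WB. All 9 IP arrays were far above the WB arrays on this probe set, by 3.33 (SE 0.15) or 10.0-fold (adjusted p = 2.56e-14). The _s_at ending of its ID marks probes that can match transcripts of more than 1 gene. IDs of the brightest probe sets of Sf3b1, Snrpb, Snrpg, Snrpe, Srsf2, Srsf6 and Hnrnpu, described below, end the same way. The other Sf3a2 probe set was dim in both groups (medians 23.1 in IP and 19.8 in WB) and differed by 0.03 (adjusted p = 0.949). Sf3b1, the subunit that clamps the branch point and is often mutated in blood cancers, had a range of 17893 to 32288 (median 22527) in IP and 3479.87 to 5191 (median 4799) in WB. The groups did not overlap, and the difference was 2.40 (SE 0.12, adjusted p = 1.98e-13). A further Sf3b1 probe set was also higher, with medians of 12021 in IP and 5205 in WB (1.16, adjusted p = 1.43e-10, not called with control scaling), while another was lower (-0.69, adjusted p = 0.00228, not called with median centring) and the last differed by 0.27 (adjusted p = 0.377).

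Sf3b2, a subunit that contacts the transcript next to the branch point, was covered by 7 probe sets. Its brightest gave 21836 to 31083 (median 24575) in IP and 8284 to 10640.2 (median 8978) in WB, a rise of 1.47 (SE 0.10, adjusted p = 1.25e-11). Another passed as higher by 0.74, though not with control scaling, 4 passed as lower by 0.89 to 2.29, and 1 did not pass. The mean over the 7 was lower in IP, with a difference of -0.77 (SE 0.13, adjusted p = 5.32e-05). Sf3b4 rose by 1.31 (adjusted p = 2.59e-05) and Sf3b6, the small subunit at the branch point adenosine, by 0.58 (adjusted p = 0.00635) on their brightest probe sets. Neither of these passed with control scaling. Sf3b6 also has a probe set at -0.65 (adjusted p = 0.0470), called in 6 of the 18 fits without 1 array, over which it ranged from -0.82 to -0.48. Sf3a3 had both probe sets lower, by 0.83 (adjusted p = 0.000236) and 0.62 (adjusted p = 0.00449), but neither passed with median centring. Sf3a1, the largest subunit of SF3A, had 146 to 746 (median 399) in IP and 235 to 543 (median 339) in WB on its brightest probe set. The groups overlapped (0.24, SE 0.24, adjusted p = 0.455). Of its other 3 probe sets 2 were lower and 1 did not pass, and neither lower call passed with quantile normalization or median centring. Sf3b3 and Sf3b5 had no call on 2 and 3 probe sets.

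Sm and snRNP proteins had 5 probe sets higher (29.4%, against 14.2% of all), 4 lower (23.5%, against 30.8%) and 8 not called of 17 (median -0.11). With median centring 7 were higher and 3 lower, and with control scaling 3 and 12. Snrpa1, a protein of the U2 particle, had 4086 to 8822 (median 7057) in IP and 1502 to 2325 (median 2024) in WB. It was higher on every IP array, by 1.72 (SE 0.14, adjusted p = 3.49e-10), whereas its other probe sets, annotated to the same transcript accession, differed by -0.34 (adjusted p = 0.158) and 0.14 (adjusted p = 0.458). Snrpb, a core Sm protein that regulates its own splicing, had 787 to 1953 (median 1401) in IP and 277 to 436 (median 369) in WB on one probe set. The IP arrays all lay above the WB arrays there (1.78, SE 0.18, adjusted p = 2.16e-08). On the other Snrpb probe set the order was the opposite, with 48.3 to 466 (median 161) in IP and 327 to 552 (median 477) in WB (-1.31, SE 0.28, adjusted p = 0.000367). Snrpd3, another Sm protein, was split 3 ways. One probe set, with an ID ending in _s_at, had 1289.79 to 3245 (median 1799.73) in IP and 339.527 to 503 (median 424) in WB, without overlap (2.05, adjusted p = 2.72e-10). A second had 54.0 to 538 (median 218) in IP and 1357 to 2353 (median 1621) in WB, without overlap in the other direction (-2.87, adjusted p = 2.32e-09). The brightest of its 3 differed by -0.11 (SE 0.31, adjusted p = 0.800).

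Snrpg, a further ring protein, rose by 0.52 (adjusted p = 0.00262) on its brightest probe set and fell by 1.36 (adjusted p = 8.88e-06) on the other, and the rise did not pass with quantile normalization or with control scaling. Snrpb2, of the U2 particle, fell by 1.02 (adjusted p = 0.0151) on its brightest probe set, but not with median centring, and was at 0.67 (adjusted p = 0.0486) on its dimmest, a call made in 6 of the 18 fits without 1 array, over which it ranged from 0.56 to 0.78. Snrpc, a U1 protein at the start of the intron, had 177 to 973 (median 718) in IP and 371 to 665 (median 557) in WB. The WB range was exceeded by 6 IP arrays and undercut by 1 (0.16, SE 0.24, adjusted p = 0.619). It was lower by 0.78 (adjusted p = 0.0151) with control scaling. Snrpe differed by 0.19 (adjusted p = 0.487) and Snrpf by -0.61 (adjusted p = 0.181).

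The PRPF proteins had 9 probe sets higher (28.1%, against 14.2% of all), 10 lower (31.2%, against 30.8%) and 13 not called of 32 (median -0.01). With median centring 14 were higher and 5 lower, and with control scaling 4 and 21. Prpf8, the large U5 protein at the centre of the catalytic spliceosome, was the strongest fall of the family and has a single probe set here. It had 43.8 to 429.726 (median 176) in IP and 932 to 1249.86 (median 1111) in WB. Every IP array lay below every WB array, with a difference of -2.58 (SE 0.29, 5.97-fold, adjusted p = 1.09e-07), and the call was kept in all 12 other settings and all 18 fits without 1 array, over a range of -3.52 to -2.12. Prpf6, which bridges the U5 and the U4/U6 particles, gave the reverse on its brightest probe set, with 15065 to 39322 (median 18067) in IP and 3777 to 7279.96 (median 5764) in WB (1.96, SE 0.18, adjusted p = 4.03e-09). The _x_at ending of this ID marks probes that may cross-hybridize, and the brightest probe sets of Sf3b2, Sf3b5, Prpf19 and Srsf1 share it. So does the other Sf3b2 probe set that was called higher. Another Prpf6 probe set fell by 0.84 (adjusted p = 0.0180), though not with quantile normalization or median centring. The last was lower by 0.57 (adjusted p = 0.0457), a call made in 5 of the 18 fits without 1 array, over which it ranged from -0.74 to -0.48.

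Prpf4b, a kinase of spliceosomal proteins, had 9025 to 21848 (median 14723) in IP and 2163 to 3841 (median 2584) in WB on its brightest probe set. The groups were apart on all arrays (2.33, SE 0.15, adjusted p = 1.06e-11), while of its other 5 probe sets 2 were lower and 3 did not pass. Prpf19, the ubiquitin ligase that stabilises the activated spliceosome, had 34853 to 110263 (median 46729) in IP and 16379.6 to 26716 (median 22801) in WB (1.41, SE 0.19, adjusted p = 1.57e-06). The next 2 of its 5 probe sets rose by 0.60 and 0.59 (adjusted p = 0.00213 and 0.00184), with 3 of 9 IP arrays above the highest WB array on each, but not with quantile normalization or control scaling, and the last 2 did not pass. Prpf39, related to a U1 protein of yeast, rose on all 3 of its probe sets, by 1.10 (adjusted p = 0.000201), 1.28 (adjusted p = 1.22e-08) and 1.29 (adjusted p = 2.01e-08), but none of the 3 passed with control scaling. Prpf18, a factor of the second catalytic step, fell by 2.08 (adjusted p = 0.000103) on its single probe set, and Prpf31, of the U4/U6 particle, fell by 1.83 (adjusted p = 0.000167) on 1 of 2. The U4/U6 proteins Prpf3 and Prpf4 differed by 0.06 (adjusted p = 0.829) and 0.00 (adjusted p = 0.996) on their brightest probe sets, and Prpf40b, related to a U1 protein of yeast, by -0.17 (adjusted p = 0.545). Prpf38a, of the precatalytic spliceosome, fell by 0.72 (adjusted p = 0.0114) on its brightest probe set, but not with median centring. Prpf38b rose by 1.96 (adjusted p = 2.45e-10) on one probe set and fell by 1.61 (adjusted p = 1.42e-05) on another, both without overlap, and the other 2 did not pass.

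SR proteins had 13 probe sets higher (39.4%, against 14.2% of all), 13 lower (39.4%, against 30.8%) and 7 not called of 33 (median 0.12). With median centring 17 were higher and 9 lower, and with control scaling 6 and 19. Srsf6 had the largest rise, on a probe set with 10902 to 18624 (median 14627) in IP and 1394 to 2514 (median 1829.95) in WB. The lowest IP array lay far above the highest WB array, and the difference was 2.90 (SE 0.13, adjusted p = 3.80e-14). A second Srsf6 probe set, whose ID also ends in _s_at, agreed in direction (1.48, adjusted p = 1.20e-09). The other 2, without that ending, were lower, by 0.94 (adjusted p = 0.000787) and 1.06 (adjusted p = 9.90e-05). Srsf3, the smallest SR protein, had 5838 to 11547 (median 8129.77) in IP and 1945 to 2396 (median 2253) in WB. It was higher there by 1.79 (SE 0.13, adjusted p = 6.77e-11), and 2 further probe sets rose, 1 fell by 1.11 (adjusted p = 2.36e-06) without overlap of the groups, and 2 did not pass. Srsf1, a founding member that promotes exon inclusion, had 9336 to 19005 (median 13064) in IP and 4362 to 6530.49 (median 6072) in WB (1.24, SE 0.13, adjusted p = 3.58e-08), which did not pass with control scaling. Of its 7 probe sets 4 were higher and 2 lower, and the mean over all 7 did not pass (0.21, SE 0.09, adjusted p = 0.0676).

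Srsf5, an SR protein induced by insulin in rat liver, had the largest fall of all members. Its single probe set had 20.4 to 359 (median 86.8) in IP and 1056 to 2474 (median 1699) in WB. The highest IP array lay below the lowest WB array, the difference was -3.95 (SE 0.39, 15.5-fold, adjusted p = 8.67e-09), and it ranged from -4.89 to -3.37 over the other settings. Srsf2, which regulates its own message through decay, had 3 of 4 probe sets lower and none higher. The brightest gave 636 to 4132 (median 2105) in IP and 2710.32 to 4473 (median 3549.81) in WB, with 8 of 9 IP arrays below the lowest WB array (-0.92, SE 0.24, adjusted p = 0.00240), and this call was lost with median centring. Another of the 3 (-0.48, adjusted p = 0.0312) was called in 13 of the 18 fits without 1 array, over which it ranged from -0.55 to -0.41. Srsf12 rose by 1.76 (adjusted p = 4.70e-08) and Srsf4 by 0.59 (adjusted p = 0.00284) on single probe sets, the second not with control scaling. Srsf10 rose by 1.24 (adjusted p = 1.29e-06) on its brightest probe set, but not with control scaling, and fell on 2 of the other 3. Srsf11 fell by 1.06 (adjusted p = 0.000754) on its brightest and rose by 2.01 (adjusted p = 1.77e-07) on another. Srsf9 differed by -0.17 (adjusted p = 0.634).

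The hnRNP family, which has the most probe sets, also had the most calls. Of 58 probe sets 26 were higher (44.8%, against 14.2% of all), 19 lower (32.8%, against 30.8%) and 13 not called (median 0.04). The higher and lower counts became 29 and 10 with median centring, 20 and 22 with quantile normalization, and 13 and 33 with control scaling. Hnrnpr, an RNA-binding protein of neurons and their axons, had 18644 to 41677 (median 29810.1) in IP and 3722 to 6925 (median 5485) in WB on its brightest probe set, whose ID ends in _x_at. Every IP array was above every WB array, by 2.46 on average (SE 0.15, adjusted p = 2.71e-12), whereas 2 of its other 4 probe sets fell, 2 did not pass, and the mean over all 5 differed by -0.14 (adjusted p = 0.366). Hnrnpll, a regulator of alternative splicing in lymphocytes, had 3076 to 5115 (median 3644) in IP and 654 to 938 (median 744) in WB. This rise of 2.29 (SE 0.13, adjusted p = 7.81e-13) stood beside a second probe set at -0.39 (adjusted p = 0.0975).

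Hnrnpl, its relative that binds CA-rich sequences, had 134 to 594 (median 297) in IP and 808 to 1272 (median 1113) in WB. Both Hnrnpl probe sets fell, the brighter by 1.77 (SE 0.20, adjusted p = 9.43e-08) without overlap and the dimmer by 1.71 (SE 0.35, adjusted p = 0.000331). Hnrnpab, an RNA-binding protein found also in the cytoplasm of neurons, fell on its brightest probe set, with 4875 to 16864 (median 9029) in IP and 20499.6 to 30925 (median 27723) in WB (-1.53, SE 0.19, adjusted p = 5.45e-07). One probe set, with an ID ending in _x_at, rose by 1.24 (adjusted p = 1.80e-09), with medians of 9191 in IP and 3840.2 in WB, but not with control scaling. Of the other 5, 2 did not pass and 3 were lower, the dimmest of them (-1.51, adjusted p = 0.0444) in 4 of the 18 fits without 1 array, over which it ranged from -1.93 to -1.23. Hnrnpa0 fell by 0.55 (adjusted p = 0.00103) and Hnrnph3 by 0.40 (adjusted p = 0.0125) on single probe sets, and neither passed with median centring.

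Hnrnpk, Hnrnpa2b1, Hnrnpa1 and Hnrnpc were higher on their brightest probe sets, a choice that included the IP values. Hnrnpk, which binds C-rich sequences, had 28452 to 79364 (median 39439.9) in IP and 14435 to 17856 (median 16179) in WB (1.53, SE 0.17, adjusted p = 4.68e-08). Of its 4 probe sets 2 were higher, and the others differed by -0.14 (adjusted p = 0.524) and 0.36 (adjusted p = 0.183). Hnrnpa2b1, a protein of transported RNA granules, had 25882 to 50491 (median 31779.8) in IP and 12684 to 16695 (median 14942) in WB (1.28, SE 0.13, adjusted p = 1.61e-08). It was higher without overlap on all 4 of its probe sets, by 1.28 to 2.10, though quantile normalization left the brightest uncalled (0.15) and control scaling the dimmest. Hnrnpa1, which represses splice sites, had 9377 to 19452 (median 13954) in IP and 3257 to 5357 (median 3999) in WB (1.82, SE 0.14, adjusted p = 9.43e-11). Its second probe set rose by 0.45 (adjusted p = 0.00797), but was lower with control scaling (-0.50, adjusted p = 0.0205), and the last fell by 1.10 (adjusted p = 0.0133), and neither of these passed as such with quantile normalization. Hnrnpc, which binds uridine tracts, had 7085 to 14051 (median 9023) in IP and 2692 to 3865 (median 3152) in WB (1.61, SE 0.14, adjusted p = 1.44e-09), and its other 2 probe sets fell by 0.82 (adjusted p = 0.00800) and 2.09 (adjusted p = 1.75e-06), the first not with median centring.

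Hnrnpu, a large nuclear matrix protein, had 12872 to 22477 (median 15892) in IP and 6695 to 8288 (median 8017) in WB. This rise of 1.13 (SE 0.12, adjusted p = 4.69e-08) did not pass with quantile normalization or with control scaling. Of its 5 probe sets 3 rose and 1 fell, and 1 of the 3 was called lower under both of those scalings (0.54 with the deposited scaling, -0.33 and -0.40 under them). Hnrnph1, which binds G runs, rose on both probe sets, by 0.97 (adjusted p = 3.52e-08) and 2.71 (adjusted p = 2.18e-10, ID ending in _x_at). For Hnrnph1 the first of these did not pass with quantile normalization or control scaling. Its relative Hnrnpf had 2 probe sets higher, by 1.86 (adjusted p = 1.39e-09) and 1.99 (adjusted p = 3.53e-12), and 2 lower, by 0.98 (adjusted p = 6.26e-05) and 0.76 (adjusted p = 9.84e-05, not called with median centring), and both that rose have IDs ending in _x_at. Hnrnpd, which binds AU-rich sequences, rose on 2 of 3 probe sets, by 0.97 (adjusted p = 1.38e-06) and 1.18 (adjusted p = 4.03e-07), and Hnrnpul1, related to Hnrnpu, by 1.17 (adjusted p = 1.34e-07), none of them with control scaling. Hnrnpul2 differed by -0.31 (adjusted p = 0.186) and 0.24 (adjusted p = 0.256) on its 2 probe sets. Hnrnph2 differed by -0.24 (adjusted p = 0.135) and Hnrnpm by 0.06 (adjusted p = 0.749).

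THO complex genes had 6 probe sets higher (40%, against 14.2% of all), 3 lower (20%, against 30.8%) and 6 not called of 15 (median -0.03). With median centring 7 were higher and 2 lower, and with control scaling 3 and 9. Of the 6 called higher as deposited, 5 belonged to Thoc1, the counterpart of Hpr1 in yeast. On its brightest probe set Thoc1 had 13794 to 31616 (median 21646) in IP and 3136 to 4240.18 (median 3556) in WB. The groups were apart on all arrays, by 2.59 (SE 0.13, 6.04-fold, adjusted p = 1.66e-13). The other 4 rose by 2.08 (adjusted p = 7.25e-11), 1.78 (adjusted p = 1.23e-09), 0.99 (adjusted p = 1.94e-06) and 0.97 (adjusted p = 0.00138), and the last 2 of these did not pass with control scaling.

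Thoc7, a small subunit, had 3148 to 5183 (median 3810.02) in IP and 1981 to 2418 (median 2148) in WB on its brightest probe set. This rise of 0.87 (SE 0.11, adjusted p = 6.65e-07) became -0.07 (adjusted p = 0.732) with control scaling. The other Thoc7 probe set differed by -0.63 (adjusted p = 0.0976), and the mean over the 2 by 0.12 (adjusted p = 0.615). Thoc5 fell, with 196 to 386 (median 277) in IP and 419 to 739.925 (median 599.83) in WB, so that no IP array reached the WB range (-0.97, SE 0.17, adjusted p = 5.51e-05). Thoc2, the scaffold subunit, had 647 to 2022 (median 1007) in IP and 1015 to 1505 (median 1182) in WB on its brightest probe set, and the groups overlapped widely (-0.10, SE 0.18, adjusted p = 0.680). A second Thoc2 probe set was at -0.56 (adjusted p = 0.0315), a call made in 12 of the 18 fits without 1 array, over which it ranged from -0.67 to -0.43. Thoc2l, a gene named after Thoc2, fell by 1.13 (adjusted p = 0.00322), although not without IP arrays 2, 5, 6 and 8. Thoc3 differed by -0.03 (adjusted p = 0.886) and Thoc6 by -0.25 (adjusted p = 0.518). Whether Thoc1 differed from each other subunit was not tested, since they are measured by different probes.

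**Figure D2:**
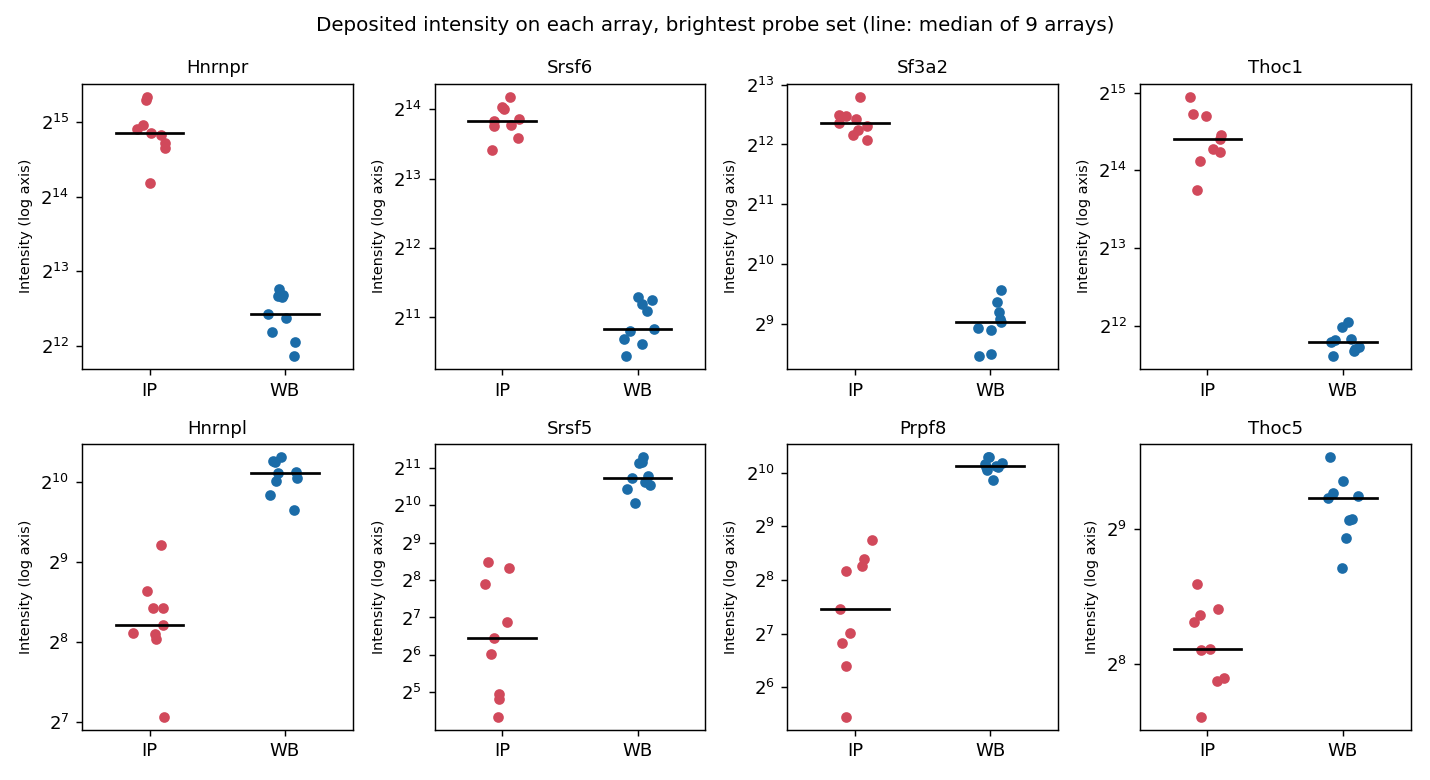
Deposited intensity (log axis) on each of the 9 IP and 9 WB arrays for the brightest probe set of 4 genes that rose (upper row: Hnrnpr, Srsf6, Sf3a2, Thoc1) and 4 that fell (lower row: Hnrnpl, Srsf5, Prpf8, Thoc5). The line is the median of a group, and in all 8 panels the groups do not overlap.

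Probe sets of 1 gene often disagreed, and they did so within single arrays. Of the 47 genes with several probe sets, 22 (46.8%) had calls in both directions, where 22% of all such genes on the array did. Another 12 (25.5%, against 16.1%) had higher calls only, 7 (14.9%, against 37.5%) lower calls only and 6 (12.8%, against 24.4%) none. Every probe set was higher in 4 genes (8.51%, against 1.22%), namely Thoc1, Hnrnpa2b1, Prpf39 and Hnrnph1, and every one was lower in Hnrnpl and Sf3a3 (4.26%, against 7.69%). To compare probe sets free of the scaling of an array, the brightest probe set of a gene was set against each other probe set of the gene as a log2 ratio within each array. Of 120 such pairs, 80 (66.7%) changed unequally between IP and WB, where 54% of the 16752 pairs on the array did. In 70 of them (58.3%, against 43.2%) the brightest moved up relative to the other and in 10 (8.33%, against 10.8%) down. Since the brightest was chosen on all 18 arrays, IP values entered the choice, and with the choice made on the WB arrays alone 60 pairs (50%, against 32.8%) moved up and 24 (20%, against 19.7%) down. Among IDs not ending in _s_at or _x_at, 37 of 78 member pairs changed unequally, and the share over all such pairs is not given here. In 33 of the 120 pairs (27.5%, against 15.9%) the probe sets were called in opposite directions.

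The widest of these splits belonged to genes of 4 families. For Hnrnpr the log2 ratio averaged 7.03 ± 1.38 in IP and 3.00 ± 0.34 in WB (SD, n = 9 each), an unequal change of 4.03 (SE 0.44, limma adjusted p = 1.74e-07). For Srsf6 the brightest probe set moved relative to both that fell, by 3.96 (SE 0.27, adjusted p = 3.92e-10), with ratios of 5.22 ± 0.43 in IP and 1.25 ± 0.58 in WB (SD, n = 9 each), and by 3.85 (SE 0.29, adjusted p = 1.92e-09). The Sf3b2 pair changed by 3.76 (SE 0.39, adjusted p = 6.99e-08), the Prpf4b pair by 3.76 (SE 0.40, adjusted p = 1.17e-07) and the Hnrnpc pair by 3.69 (SE 0.38, adjusted p = 5.89e-08). In each of the 6 pairs all 9 IP ratios exceeded all 9 WB ratios. The brightest probe sets of Hnrnpr and Sf3b2 have IDs ending in _x_at, and that of Srsf6 ends in _s_at. Among the 14 pairs whose probe sets are annotated to a single transcript accession, 11 (78.6%, against 53.7%) changed unequally and 5 (35.7%, against 15.4%) were called in opposite directions, those of Hnrnpa1, Hnrnpc, Hnrnpdl, Snrpg and Sf3b6. Hnrnpdl, a relative of the AU-rich binder Hnrnpd, rose by 1.54 (adjusted p = 4.47e-11) on 1 of these and fell by 0.83 (adjusted p = 0.000603, not called with median centring) on the other.

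**Figure D3:**
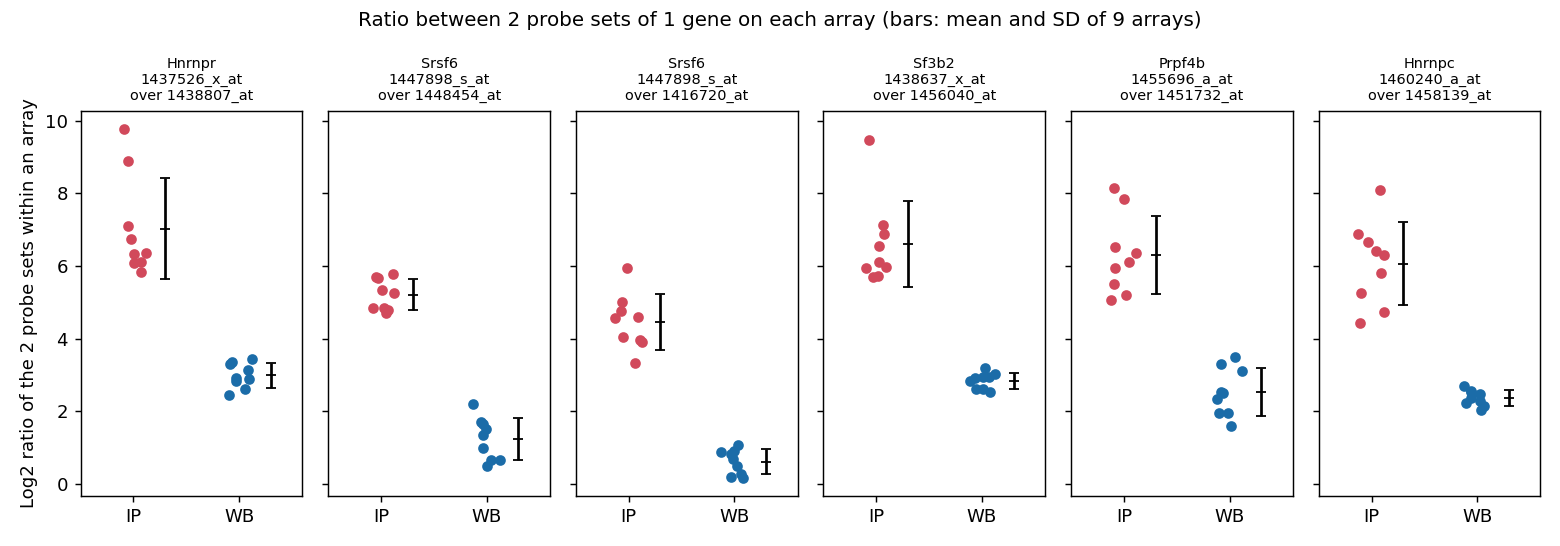
Log2 ratio between the brightest and another probe set of the same gene within each array, for the 6 member pairs with the largest unequal change among those called in opposite directions. Points are arrays and bars the mean and SD of 9, and the IP ratios (left in each panel) all lie above the WB ratios.

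Calls went with the mean intensity of a probe set, which depends on its probes as well as on the transcript, in these families as on the whole array. Of 71 member probe sets with a mean intensity of at least 2000, 54 (76.1%) were higher in IP, against 58.9% of all probe sets that bright, and 8 (11.3%, against 22.9%) were lower. Between 500 and 2000, 11 of 71 (15.5%, against 23.1%) were higher and 31 (43.7%, against 40.9%) lower. Between 100 and 500, 2 of 38 (5.26%, against 7.35%) were higher and 20 (52.6%, against 36.4%) lower, and none of the 5 dimmest was called either way, where 7.59% of all probe sets under 100 were higher and 14.4% lower. The mean intensity includes the IP values, so a higher call raises it. The median mean intensity was 1079 over the members and 227 over all probe sets.

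**Figure D4:**
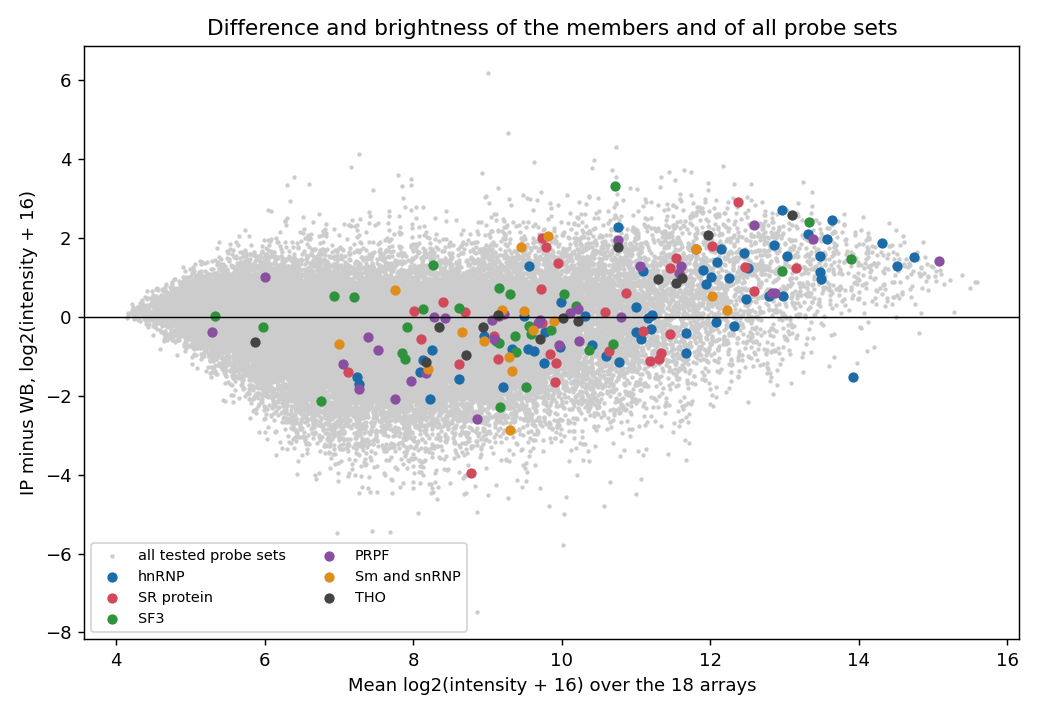
Difference between IP and WB against the mean log2(intensity + 16) over the 18 arrays, for all tested probe sets (grey) and for the members coloured by family. Members above a mean of 12 lie mostly above 0, with Hnrnpab at -1.53 the clearest exception, and the lowest point of a member is Srsf5 at -3.95.

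**Figure D5:**
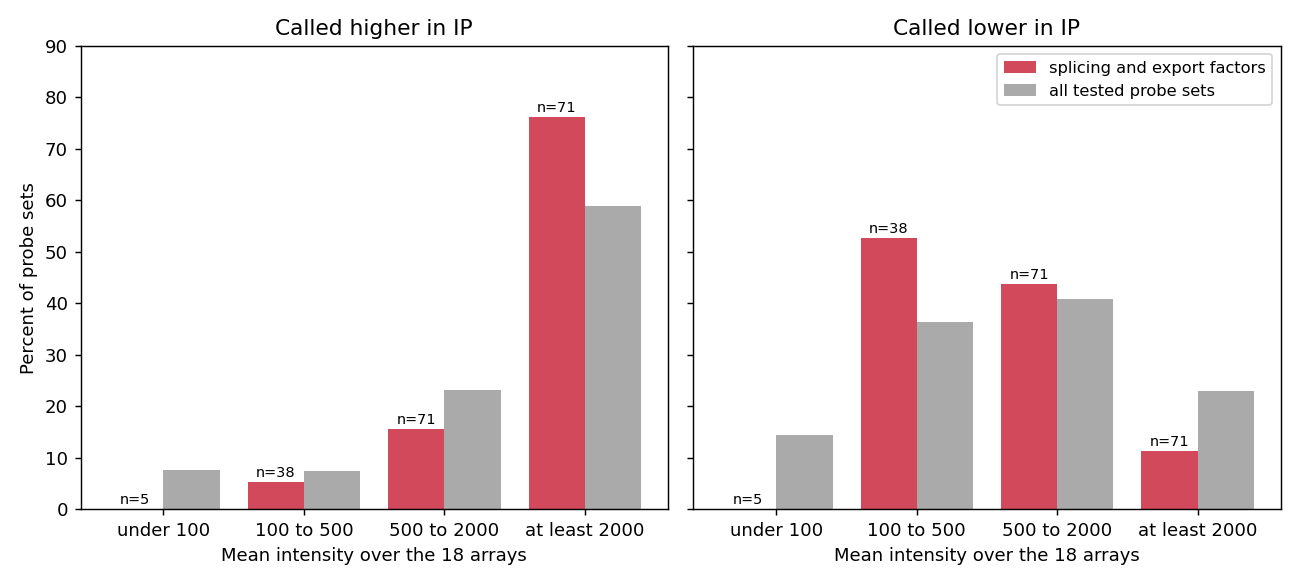
Percent of probe sets called higher (left) and lower (right) in IP within 4 classes of mean intensity, for the splicing and export factors (red) and all tested probe sets (grey), with the number of members above each red bar. Among the brightest, 76.1% of the members and 58.9% of all probe sets were higher.

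The class of the probe set ID, which says how specific its probes are, also went with the calls. Of 109 members with a plain _at ID, 26 (23.9%, against 11.6% of all such probe sets) were higher and 40 (36.7%, against 30.8%) lower. The _a_at class, whose probes match several transcripts of a gene, had 15 of 33 (45.5%, against 16.3%) higher and 11 (33.3%, against 40%) lower. In the _s_at class 11 of 23 (47.8%, against 24.5%) were higher and 8 (34.8%, against 28.7%) lower, and in the _x_at class 15 of 20 (75%, against 41%) were higher and 0 (against 15.1%) lower. Without the last 2 classes 41 of 142 members were higher and 51 lower, so that 44.6% of their calls were higher, against 27.5% over all probe sets of the remaining classes. With each gene represented by its brightest probe set, 32 of 65 genes (49.2%) were higher and 14 (21.5%) lower, where 21.7% of all genes were higher and 21.7% lower. The groups did not overlap in 29 of the 65 (44.6%, against 9.22% of all genes) with IP above WB and in 5 (7.69%, against 6.72%) with IP below. Chosen on the WB arrays alone, the brightest probe set was higher in 28 genes and lower in 18, where 18.7% and 25.6% of all genes were. With the mean over all probe sets of a gene, 21 of 65 (32.3%, against 12.5% of all genes) were higher and 17 (26.2%, against 29%) lower.

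Other genes of the same processes, 122 measured of 132 listed in 9 groups, gave 45 higher and 35 lower calls on their brightest probe sets (median -0.06), against 57 and 15 with median centring and 22 and 75 with control scaling. For comparison, 21.7% of the genes on the whole array were called higher on their brightest probe set, and 21.7% lower. Whether any list differed from these shares was not tested. Among U1, U5 and tri-snRNP proteins 8 of 16 were higher and 5 lower. Snrnp40, a U5 protein, had 2319 to 8653 (median 3042) in IP and 329 to 742 (median 688) in WB (2.64, SE 0.26, adjusted p = 7.71e-09). Txnl4a, a small U5 protein, had 35.8 to 315 (median 253) in IP and 675 to 958 (median 703) in WB (-1.97, SE 0.30, adjusted p = 7.29e-06). Neither gene's groups overlapped on these probe sets. Snrnp40 was called on 1 of its 2 probe sets and Txnl4a on 1 of its 3. Of 10 branch point and 3′ splice site factors 6 were higher and 3 lower. Cherp, associated with the U2 particle, rose by 2.75 (SE 0.14, adjusted p = 1.66e-13), with medians of 11911 in IP and 2008 in WB. It was higher on 1 of its 3 probe sets, and the others did not pass. U2af1, which reads the AG at the end of the intron, fell by 2.56 (SE 0.30, adjusted p = 1.19e-07), with medians of 177 in IP and 1018 in WB. Lsm proteins, relatives of the Sm ring, gave 1 higher and 5 lower of 12. Lsm3 fell by 1.43 (adjusted p = 9.60e-06), and Lsm14b rose by 0.39 (adjusted p = 0.0438) but was lower with control scaling (-0.56, adjusted p = 0.0474).

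SR protein kinases had 1 of 7 higher and 1 lower. Clk1, which phosphorylates SR proteins in the nucleus, rose by 0.92 (SE 0.16, adjusted p = 4.80e-05) and was at -0.03 (adjusted p = 0.928) with control scaling, and Clk3 fell by 0.54 (adjusted p = 0.0307). SR-related proteins had 4 of 14 higher and 7 lower. Pnn, a protein of nuclear speckles, rose by 2.35 (SE 0.15, adjusted p = 4.28e-12) and was higher on 2 of its 3 probe sets. Srrm3, a regulator of microexons, fell by 1.88 (SE 0.20, adjusted p = 2.51e-08) and was lower on all 3. Among other hnRNP-type and PTB proteins 8 of 20 were higher and 2 lower. Ewsr1, an RNA-binding protein of the nucleus, rose by 2.45 (SE 0.17, adjusted p = 3.25e-11) on a probe set whose ID ends in _x_at. Of its 3 probe sets 1 was higher and 1 lower. Khdrbs3, of the STAR family, fell by 1.29 (adjusted p = 2.69e-05). Spliceosome activation and step factors had 7 of 21 higher and 6 lower. Xab2 rose by 2.09 (SE 0.13, adjusted p = 3.51e-12) on an _x_at probe set, and of its 3 probe sets 2 were higher and 1 lower. Cwc15 fell by 1.37 (adjusted p = 6.21e-06).

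Proteins of the exon junction complex, which marks spliced messages, and of the decay pathway it feeds gave 2 higher and 3 lower of 5. Upf2, a decay factor, had medians of 9633 in IP and 1693 in WB (2.29, SE 0.16, adjusted p = 4.23e-11). It was higher on 1 of its 2 probe sets, and the other did not pass. Casc3, a core subunit of the complex, had medians of 349 in IP and 774 in WB (-1.13, SE 0.26, adjusted p = 0.000928). Export factors outside the THO complex gave 8 higher and 3 lower of 17. Ddx39a, a helicase of messenger RNA export, had 3581 to 7799 (median 4284) in IP and 479 to 836 (median 599) in WB. It rose by 2.86 (SE 0.15, adjusted p = 1.93e-13) and was higher on 4 of its 5 probe sets. Nxt1, the partner of the export receptor, fell by 1.45 (SE 0.31, adjusted p = 0.000399), with medians of 112 in IP and 306 in WB, while the receptor itself, Nxf1, named after its value was seen, rose by 0.92 (SE 0.14, adjusted p = 6.07e-06) on its brighter probe set and fell on the other.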

How the data were processed

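RNA of 9 IP and 9 WB samples was measured on 18 arrays, with 5 ng of RNA amplified per sample per the labels' protocols. The deposited values are linear array intensities. The submitters' processing notes name MAS5 for them (version not given in the sources used here). The intensities were never negative and each array's mean was 500 once 2% of the values were trimmed at either end. Groups came from the sample titles. From the deposited intensities log2(intensity + 16) was computed, which understates folds of dim probe sets, with no filter on brightness. The 64 array controls were left out and the other 45037 probe sets entered limma 3.58.1 under R 4.3.3 (empirical Bayes, intensity trend, Benjamini-Hochberg over all). Pairs of probe sets were tested the same way over 16752 pairs. Symbols came from the platform annotation, where 34945 probe sets had 1 symbol, 932 several and 9160 none listed, and all 185 member probe sets matched a reference gene table by Entrez ID, used for names only. The number of arrays limits the precision.

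Genes described in full were 16 core genes, the 2 largest rises and falls without overlap in each family, the 6 widest pairs with opposite calls, and the largest rise and fall of each of the 9 lists. A further core gene, Snrpd1, has a probe set with several symbols. The members, lists and rule were chosen with earlier results of these data known. The procedure was tested on simulated data. Alternatives were other pseudocounts (1 and 64), quantile normalization, centring on the median, scaling on 18 hybridization control probe sets, minimum mean intensities of 100 and 500, a fit with no intensity trend, weights for the arrays, the replicate number as a block, IDs other than _s_at and _x_at, the mean over a gene's probe sets and leaving out each array. Leaving out IP arrays 2, 5, 6 and 8 together, choosing the brightest probe set on WB arrays and the alternatives for the 9 lists were added after seeing the data.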

Additional observations from a re-analysis of the deposited data

Results flagged for a closer look

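Among 90 groups of 9 arrays looked at for a single array far from the rest, 4 held one, and chance gives about 1 in 20. The values are log2(intensity + 16) on the brightest probe set. In Sf3a1, IP array 2 was at 7.34, with the next array at 8.51. In Snrpc, IP array 1 was at 7.59, with the next at 8.83. In Ddx39a, IP array 8 was at 12.93, with the next at 12.34. In Srsf1, WB array 4 was at 12.10, with the next at 12.43. Without any 1 array, Sf3a1 ranged from 0.13 to 0.41 and Snrpc from 0.08 to 0.37 and neither was called, and Srsf1 ranged from 1.19 to 1.31 and was called in all 18 fits.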

How the results depend on the processing

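Leaving out each array in turn gave 66 to 68 member probe sets called higher, 54 to 60 called lower and 78 to 83 pairs with unequal change, and in the 9 lists 43 to 46 genes higher and 31 to 37 lower. Without IP arrays 2, 5, 6 and 8 there were 68 higher and 53 lower. Scaling on the hybridization controls gave 32 higher and 113 lower, and in the lists 22 and 75. Median centring gave 33 lower, and in the lists 15. The mean over a gene's probe sets gave 21 genes higher and 17 lower, from 65 genes in place of 185 probe sets. Without _s_at and _x_at IDs 41 of 142 members were higher, 37 of 78 pairs changed unequally, and 28 of 100 list genes were higher. Fewer probe sets were tested there, and the share of unequal pairs was also below that of the main setting (80 of 120). Under scaling on the hybridization controls the differences of Clk1 (-0.027), Lsm14b (-0.56), Snrpc (-0.78) and Thoc7 (-0.075) turned negative, and the cause was not tested. In the same setting 15 of the 67 member probe sets called higher were below 0, and Sf3a1, not called, was at -0.71. Whether equal replicate numbers mark samples of 1 animal is not labelled. The 9 correlations of deviations between same-numbered arrays ran from -0.05 to 0.08, and 2 of 9 IP arrays correlated best with their own number. Such values cannot settle the pairing, since the IP arrays differed widely among themselves. With the number as a replicate block 66 members were higher, 58 lower and 78 pairs unequal.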

Other observations

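Probe sets annotated to several symbols lie outside the members, and 10 of them name a gene of these families. The 4 of Hnrnpa3, a relative of Hnrnpa2b1, were all higher in IP, by 0.70 to 1.86 (limma adjusted p from 6.69e-05 to 4.21e-10). The brightest had 12343 to 23587 (median 15174) in IP and 8872 to 12182 (median 10417) in WB. They are also annotated to Gm6793. Of 3 probe sets shared by Hnrnpa1 and its near copies, 1 fell by 0.97 (adjusted p = 4.23e-05) and the others differed by 0.01 (adjusted p = 0.955) and 0.18 (adjusted p = 0.290). The Sm protein Snrpd2, shared with Gm5848, fell by 2.01 (adjusted p = 6.93e-08), with 200.1 to 885 (median 488) in IP and 1630.4 to 2804 (median 1863) in WB and no overlap. Snrpd1 differed by -0.16 (adjusted p = 0.482), and Snrpa, the U1 protein, by 0.51 (adjusted p = 0.0536). Which of the annotated genes gave these signals cannot be read from the array.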
